A study of Mus musculus with 6 samples.

Results

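The genes described here encode the enzymes of glycolysis, and their members were fixed by name as 10 genes: Hk2, Gpi1, Pfkl, Aldoa, Tpi1, Gapdh, Pgk1, Eno1, Pkm and Ldha, out of 21900 protein-coding genes in the mouse RefSeq table. Every peak that the authors' annotation assigned to one of these names was taken, which gave 34 of 36147 HCFC1 peaks in control cells, 30 of 21881 in the list from ERRα knockdown and 16 of 12610 in that from HCFC1 knockdown. The lists come from sequencing of chromatin immunoprecipitated with an HCFC1 antibody (ChIP-seq) from the wild-type mouse hepatoma line Hepa1-6, with 1 HCFC1 library for each condition. Control cells received a pool of scrambled small interfering RNAs (siRNAs), and the other groups received siRNAs against ERRα (gene Esrra) or against HCFC1. All were transfected at 100 nM and again 48 h later, given in the labels as 200 nM over 96 h. Each library pooled 2 immunoprecipitations, so no difference below has a replicate check and no p-value was computed. IgG libraries, RNA and protein were not analysed here, so neither the extent of knockdown nor the expression of these genes is known, and no list gives its read depth. The hepatocyte label of the line could not be checked against markers in lists of peaks.

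Glycolysis splits glucose in the cytosol into pyruvate, which either enters mitochondria for oxidation or is reduced to lactate. In mature liver several steps are run by liver-type isoenzymes, while Hk2, Pkm and Aldoa encode forms typical of muscle, of most growing tissues and of hepatomas. HCFC1 (host cell factor C1) has no DNA-binding domain of its own and is held at promoters by DNA-binding partners such as THAP11, ZFP143 and GABPA. ERRα is an orphan nuclear receptor known chiefly for its control of mitochondrial energy metabolism genes, so glycolysis is the cytosolic counterpart to set beside that pathway.

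In control cells, HCFC1 peaks lay at the start of all 10 glycolysis genes. A gene-start peak is one whose centre lies within 1000 bp of a transcription start, and 10 of 10 genes had one (100.0%, exact binomial 95% interval 69.2 to 100.0%), against 43.7% of protein-coding genes. The same 10 had one after ERRα knockdown, against 44.6% of protein-coding genes. After HCFC1 knockdown 6 of 10 did (60.0%, 26.2 to 87.8%), against 29.0%. By peaks at any distance the counts were 10, 10 and 8 of 10 genes, against 57.1%, 52.0% and 36.4% of protein-coding genes. The deposited promoter label was narrower, since it missed 49.0% of the control peaks centred within 1000 bp of a start. It gave 5 of 10 glycolysis genes in control cells against 23.2% of protein-coding genes, 5 of 10 after ERRα knockdown against 22.1%, and 2 of 10 after HCFC1 knockdown against 15.1%. Intervals cover counting error only, and 10 genes make them wide.

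The 5 promoter windows below show where peaks came and went, and each runs from 250 bases before to 50 bases after a RefSeq transcription start on GRCm38.p6. Hk2 is shown because its window was free of HCFC1 peaks in control cells only. Pgk1 and Eno1 are shown because theirs were free after HCFC1 knockdown only, and Ldha and Tpi1 because theirs held a peak in every list. Some windows not printed shared these last patterns. Windows of Pfkl, Aldoa, Pkm and Eno1 were also free after HCFC1 knockdown only. Other windows of Aldoa and Pkm, and that of Gapdh, also held a peak in every list. The Eno1 window is that of its most upstream RefSeq start, at 150236708. Peak distances at Eno1 refer to another start, at 150237197. Those at Tpi1 refer to a start at 124814297, 139 bp from the RefSeq start of its window. Capitals mark the motif letters searched on both strands, which are spelled out with the results on sequence.
Hk2, chr6:82774405-82774704, minus strand: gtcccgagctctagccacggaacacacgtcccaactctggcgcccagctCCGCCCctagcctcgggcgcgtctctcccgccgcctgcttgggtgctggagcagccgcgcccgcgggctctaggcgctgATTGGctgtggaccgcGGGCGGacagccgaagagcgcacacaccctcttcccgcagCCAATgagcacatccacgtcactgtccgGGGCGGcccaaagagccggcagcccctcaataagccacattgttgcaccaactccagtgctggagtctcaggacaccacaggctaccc
Pgk1, chrX:106186850-106187149, plus strand: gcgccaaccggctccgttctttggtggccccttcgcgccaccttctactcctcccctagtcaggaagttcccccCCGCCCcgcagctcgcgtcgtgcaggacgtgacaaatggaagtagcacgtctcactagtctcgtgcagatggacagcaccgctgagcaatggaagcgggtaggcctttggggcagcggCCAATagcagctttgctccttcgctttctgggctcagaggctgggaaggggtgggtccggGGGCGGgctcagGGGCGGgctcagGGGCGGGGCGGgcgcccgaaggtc
Eno1, chr4:150236458-150236757, plus strand: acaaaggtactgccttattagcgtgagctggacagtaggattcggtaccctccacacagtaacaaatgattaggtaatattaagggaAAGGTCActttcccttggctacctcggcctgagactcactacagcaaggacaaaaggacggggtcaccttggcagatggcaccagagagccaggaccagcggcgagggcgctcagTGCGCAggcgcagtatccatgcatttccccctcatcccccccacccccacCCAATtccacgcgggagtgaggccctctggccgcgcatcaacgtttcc
Ldha, chr7:46845554-46845853, plus strand: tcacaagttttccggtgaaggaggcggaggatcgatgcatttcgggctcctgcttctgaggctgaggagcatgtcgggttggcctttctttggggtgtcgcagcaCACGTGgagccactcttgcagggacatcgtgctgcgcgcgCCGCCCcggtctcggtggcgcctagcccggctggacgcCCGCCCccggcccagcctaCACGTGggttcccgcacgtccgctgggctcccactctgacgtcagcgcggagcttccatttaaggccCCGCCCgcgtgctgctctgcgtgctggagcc
Tpi1, chr6:124814109-124814408, minus strand: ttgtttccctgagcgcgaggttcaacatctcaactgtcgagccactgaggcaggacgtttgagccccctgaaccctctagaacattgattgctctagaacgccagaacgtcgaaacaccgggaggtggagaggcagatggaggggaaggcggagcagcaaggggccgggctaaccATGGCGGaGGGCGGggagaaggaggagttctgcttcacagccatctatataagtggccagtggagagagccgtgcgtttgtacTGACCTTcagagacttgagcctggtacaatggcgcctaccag

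**Figure D1:**
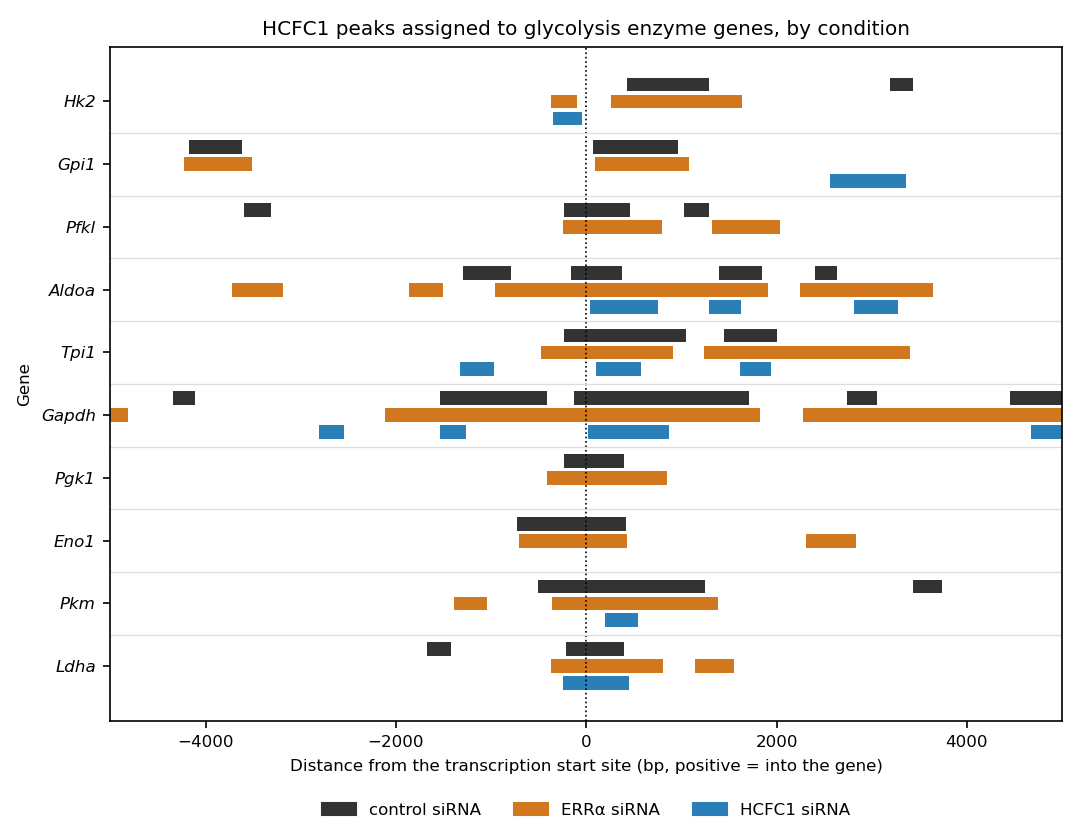
Each bar is 1 HCFC1 peak of a glycolysis enzyme gene, placed by its distance in bp from the transcription start (positive values run into the gene), in 3 lanes per gene for control, ERRα and HCFC1 siRNA; peaks are clipped at 5000 bp either side. Control and ERRα-knockdown peaks crossed the start of 8 genes each, all but Hk2 and Gpi1, while the HCFC1-knockdown lane is empty within 1000 bp of the start for Gpi1, Pfkl, Pgk1 and Eno1.

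Hk2, at the head of the pathway, had its gene-start peak on different sides of the start in the control and HCFC1-knockdown lists. It encodes hexokinase 2, which phosphorylates glucose on entry. Its control gene-start peak sat inside intron 1, centred 860 bp downstream of the start (chromosome 6, 82773159 to 82774029, score 69). After ERRα knockdown a peak of score 103 covered the same stretch (82772818 to 82774190). A narrower ERRα-knockdown peak of score 26 lay upstream of the start, at 82774547 to 82774826. After HCFC1 knockdown the upstream peak was the only one left at Hk2 (82774503 to 82774802, score 33, centred at -198 bp). The upstream position was thus occupied in both knockdown lists and in neither case overlapped a control peak. Of the 300 bases of the Hk2 window printed above, control peaks covered 0, ERRα-knockdown peaks 158 and HCFC1-knockdown peaks 202. Gene-start peaks overlapped by no control peak stood at 3 of the 10 glycolysis genes in the ERRα-knockdown list (Hk2, Aldoa and Ldha), against 14.3% of all genes with a gene-start peak there. In the HCFC1-knockdown list Hk2 was the only one of 6, against 9.2%. Hk2 had 5 other control peaks, scoring 33 to 67, and none was overlapped in a knockdown list. Of these, 3 lay more than 40 kb from the start, a distance at which neither knockdown list holds any peak.

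Gpi1 and Pfkl kept their start peaks after ERRα knockdown and lacked them after HCFC1 knockdown. Gpi1 encodes glucose-6-phosphate isomerase, and its control gene-start peak was the weakest of the 10 (chromosome 7, 34229375 to 34230267, score 32). The matching ERRα-knockdown peak scored 61 (34229257 to 34230247). In the HCFC1-knockdown list the only Gpi1 peak was in intron 3, centred 2961 bp into the gene, at a place with no peak in the other lists (34226977 to 34227774, score 43). An intergenic peak centred at -3896 bp from the Gpi1 start scored 37 in control and 154 after ERRα knockdown. Among all peaks of the same list these scores stood at percentiles 52.5 and 71.4. The peak was not compared between lists by raw score, as the scale is unstated. It was the highest-scoring peak of Gpi1 in both lists, and no HCFC1-knockdown peak overlapped it. Pfkl encodes the liver-type phosphofructokinase, the main control point of the pathway, and had the strongest control gene-start peak of the 10, over its first exon (chromosome 10, 78009348 to 78010043, score 151). The ERRα-knockdown peak there scored 117 (78009008 to 78010050). After HCFC1 knockdown the only Pfkl peak was in intron 10, centred 15246 bp from the start (77994372 to 77994750, score 28). Among control gene-start peaks of all genes with scores of 86 to 151, 61.6% were overlapped after HCFC1 knockdown.

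Aldoa and Tpi1, whose enzymes make and interconvert the triose phosphates, had peaks spread over much of their short bodies. Aldoa encodes aldolase A and had 4 control peaks on chromosome 7. They scored 86 at a start site (126798801 to 126799337), 43 at an upstream start (126799973 to 126800477), 102 in intron 3 (126797331 to 126797787) and 17 in exon 5 (126796543 to 126796779). After ERRα knockdown 1 peak of 2867 bp and score 95 covered the start-site and intron 3 peaks whole and 163 of the 505 bp of the upstream-start peak (126797269 to 126800135), and a second, of score 76, covered the exon 5 peak (126795529 to 126796932). After HCFC1 knockdown the start-site and intron 3 peaks were overlapped by narrower ones scoring 52 (126798427 to 126799141) and 44 (126797554 to 126797893), while the upstream start was not overlapped. Tpi1 encodes triosephosphate isomerase, and its intron 3 peak (chromosome 6, 124812287 to 124812847, score 84) outscored the one at the start (124813252 to 124814527, score 62). In the ERRα-knockdown list that order was turned, with 178 at the start (124813380 to 124814770) and 71 in the body (124810893 to 124813062). After HCFC1 knockdown both places kept a peak, of score 34 at the start (124813725 to 124814198) and 29 in the body (124812355 to 124812680). The other HCFC1-knockdown peaks given to Tpi1 lay inside its neighbour Usp5, at 124815268 to 124815619 (score 31) and 124820061 to 124820357 (score 21).

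Gapdh had a gene-start peak and a peak at its end in every list. It encodes glyceraldehyde-3-phosphate dehydrogenase, the step that yields NADH. Of its 5 control peaks the strongest lay over the start and the first introns (chromosome 6, 125164066 to 125165899, score 125), and a second gene-start peak scored 34 (125166186 to 125167308). After ERRα knockdown a single peak of 3950 bp, the widest at any of the 10 genes, joined those places (125163943 to 125167892, score 184). After HCFC1 knockdown they were again separate and narrow, with scores of 74 (125164906 to 125165759) and 32 (125167032 to 125167305). The end of the gene, next to Iffo1, carried a peak in all 3 lists, scoring 38 in control cells (125160736 to 125161321), 83 after ERRα knockdown (125160172 to 125163499) and 25 after HCFC1 knockdown (125160498 to 125161094). Gapdh has processed pseudogenes of near-identical sequence, and the treatment of reads with several placements is unknown, so peaks over its exons are less certain than those over the start.

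Pgk1 and Eno1 were the members with no peak at all after HCFC1 knockdown. Pgk1 encodes phosphoglycerate kinase 1, the first ATP-yielding step, and was the only member on chromosome X and the only one with a single control peak. That peak covered the start (106186867 to 106187500, score 83) and was matched after ERRα knockdown by a wider one of score 48 (106186687 to 106187950). Ranked among the gene-start peaks of all genes in the same list, Pgk1 stood at percentile 41.4 in control and 12.8 after ERRα knockdown. Eno1 encodes alpha-enolase. Its gene-start peak scored 43 in control (chromosome 4, 150236473 to 150237611) and 80 after ERRα knockdown (150236492 to 150237623), with centres 15.5 bp apart. Control gene-start peaks that scored like those of the glycolysis genes, 32 to 151, were overlapped after HCFC1 knockdown in 46.1% of cases over all genes. On chromosome X, examined because Pgk1 lies there, the share was 21.6% (21 of 97, with Pgk1 among the 97). Such peaks were thus more often missing than kept over all genes as well as on chromosome X. That share was taken for HCFC1 knockdown only, and no other chromosome was compared.

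Pkm and Ldha, at the end of the pathway, kept a start peak in every list. Pkm encodes the pyruvate kinase of muscle and most proliferating cells. Its gene-start peak was 1759 bp wide and scored 129 in control (chromosome 9, 59655863 to 59657621), and scored 205, the highest of the 10 genes, after ERRα knockdown (59656008 to 59657755). After HCFC1 knockdown it was 347 bp wide and scored 90 (59656565 to 59656911), again the highest of the members, with its centre 4.0 bp from that of the control peak. Ldha encodes the lactate dehydrogenase subunit that favours lactate formation. Its gene-start peak scored 52 in control (chromosome 7, 46845597 to 46846202), 138 after ERRα knockdown (46845431 to 46846613) and 34 after HCFC1 knockdown (46845559 to 46846256). The Ldha peak covered 257, 300 and 295 of the 300 window bases in that order. Ldha was the only gene whose HCFC1-knockdown peak crossed the start site used in the map of peaks. For Tpi1 and Pkm the map used starts 139 and 208 bp from the nearest RefSeq start. HCFC1-knockdown peaks of Tpi1 and Pkm did cross those RefSeq starts, at 124814158 and 59656576. A second Ldha start, further into the gene, had a peak of score 31 only after ERRα knockdown (46846947 to 46847358).

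Peak scores are the authors' own, on an unstated scale, so they were ranked only within a list. The gene-start peaks of the glycolysis genes were mid to low in rank. In control their scores ran from 32 to 151 with a median of 76, against a median of 107 over 9577 protein-coding genes with a gene-start peak, and 3 of 10 lay above that median. After ERRα knockdown the median was 110 against 183.5, with 2 of 10 above it. After HCFC1 knockdown it was 43 against 50, with 3 of 6 above it. Pkm and Gapdh were in the upper 50% in all 3 lists, and Gpi1 and Eno1 were in the lower 30% wherever they had a gene-start peak. Hk2, Aldoa, Gapdh and Pkm had higher scores after ERRα knockdown than in control but lower percentiles. For Pkm these were 56.6 in control and 53.4 after ERRα knockdown, and for Gapdh 55.7 and 50.1. Gpi1, Tpi1, Eno1 and Ldha were higher by both score and percentile, and Pfkl and Pgk1 lower by both. Centres tended to lie inside the gene: 9 of 10 control gene-start peaks were downstream of the start, as were 74.1% over all genes, with a median distance of 243 bp against 141 bp. Within 20 kb of a start, 7 of 10 glycolysis genes had 3 or more control peaks, against 22.7% of protein-coding genes that had any. After ERRα knockdown 6 did, against 17.7%, and after HCFC1 knockdown 3 did, against 8.94%.

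**Figure D2:**
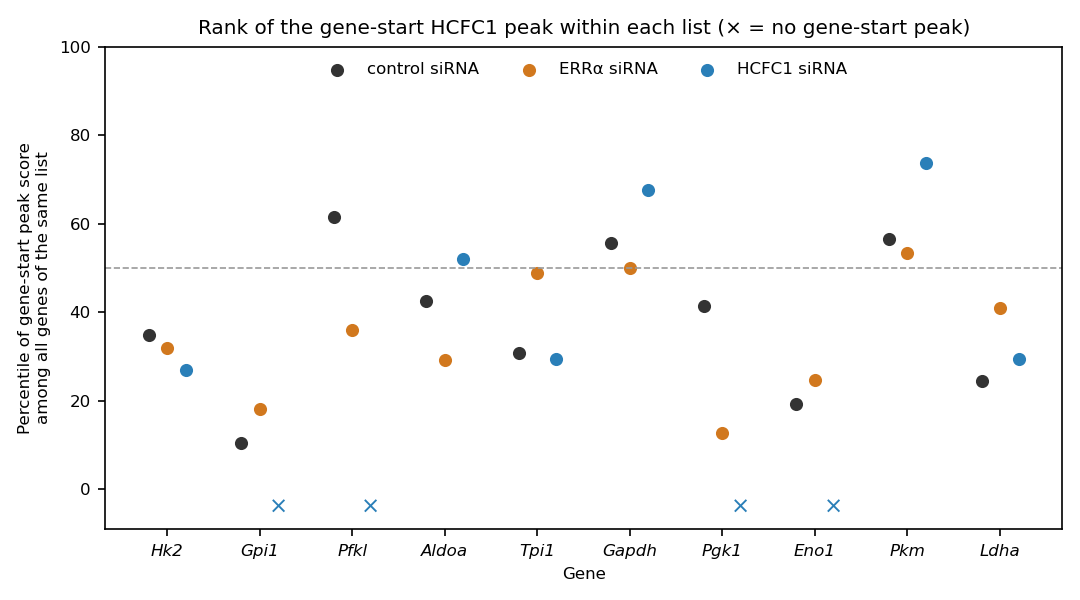
Points give the percentile of each glycolysis gene's highest gene-start peak score among all protein-coding genes with such a peak in the same list, for control, ERRα and HCFC1 siRNA, and crosses mark genes with no gene-start peak. In control the values run from 10.4 (Gpi1) to 61.5 (Pfkl), and the dashed line at 50 is crossed from below by Aldoa after HCFC1 knockdown, at 52.0.

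The knockdown lists end at 20 kb from a transcription start, which limits what can be compared. Neither holds a peak at 20 kb or beyond, whereas 10630 of the control peaks (29.4%) lie there. For the glycolysis genes 5 control peaks were this far out, 3 of Hk2 and 1 each of Eno1 and Pkm, and none was overlapped. Both knockdowns were compared with the same control list. A control peak counted as kept when a knockdown peak overlapped it by at least 1 bp. After ERRα knockdown 19 of the 34 control peaks were kept, against 40.6% of all control peaks, and 19 of the 29 within 20 kb (65.5%, 45.7 to 82.1%), against 57.5%. All 12 gene-start peaks were kept (100.0%, 73.5 to 100.0%), against 88.6%, and so was the highest one of each gene, against 91.7% over all genes and 91.5% over genes with scores of 32 to 151. Of the 17 further out but within 20 kb, 7 were kept (41.2%, 18.4 to 67.1%), against 32.6%. Each of these intervals included its value for all genes. The median width was 711 bp in the ERRα-knockdown list and 464 bp among control peaks within 20 kb, and wider peaks overlap more easily.

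After HCFC1 knockdown, 9 of the 34 control peaks were kept, against 22.3% of all control peaks, and 9 of the 29 within 20 kb (31.0%, 15.3 to 50.8%), against 31.5%. The gene-start peaks were kept in 6 of 12 cases (50.0%, 21.1 to 78.9%), against 55.4%, and the peaks further out in 3 of 17 (17.6%, 3.80 to 43.4%), against 12.4%. Taking the highest gene-start peak of each gene, those of Aldoa, Tpi1, Gapdh, Pkm and Ldha were kept and those of Hk2, Gpi1, Pfkl, Pgk1 and Eno1 were not. That is 5 of 10, beside 59.7% over all genes and 46.1% over genes with scores of 32 to 151. Retention therefore stood near the value for all genes. By control score, 3 of 4 were kept with scores of 86 to 151, 2 of 4 with 52 to 85, and 0 of 2 with 32 to 51, numbers too small to show a trend. Pfkl, the highest at 151, was not kept, while Ldha was kept at 52. Over all genes the shares were 61.6%, 43.3% and 28.5% in the same score ranges, which were drawn after the scores of the glycolysis genes were seen.

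**Figure D3:**
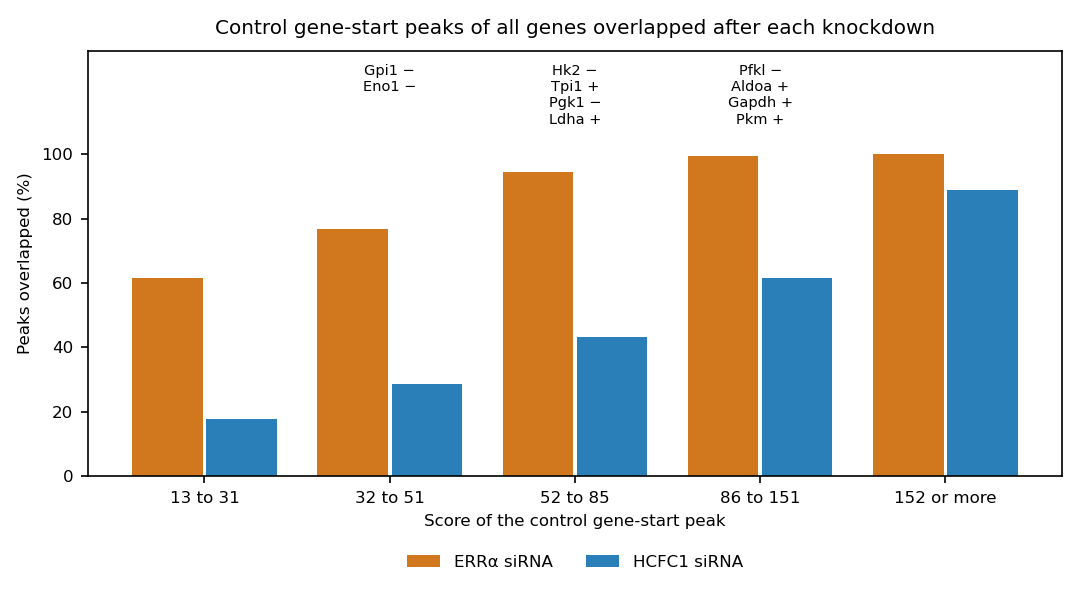
Bars give the percent of highest control gene-start peaks, over all protein-coding genes, that were overlapped in the ERRα- and HCFC1-knockdown lists, by control score. Above each range stand the glycolysis genes it holds, with + where the HCFC1-knockdown list overlapped the peak and − where it did not; the blue bars rise from 17.7% at scores of 13 to 31 to 88.9% at 152 or more, a range that holds none of the 10 genes.

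Read from the knockdown side, 15 of the 30 ERRα-knockdown peaks of the glycolysis genes overlapped a control peak (50.0%, 31.3 to 68.7%), against 59.5% of that whole list, and 10 of 13 gene-start peaks did, against 84.8%. For HCFC1 knockdown it was 9 of 16 (56.2%, 29.9 to 80.2%), against 65.9%, and 6 of 7 gene-start peaks, against 90.2%. Of the 16 HCFC1-knockdown peaks, 11 were overlapped in the ERRα-knockdown list (68.8%, 41.3 to 89.0%), against 71.1% of all HCFC1-knockdown peaks. Peaks found in neither of the other lists after HCFC1 knockdown were the intron 3 peak of Gpi1, the intron 10 peak of Pfkl, both Usp5 peaks given to Tpi1 and a peak in the last intron of Ncapd2 given to Gapdh (125168317 to 125168584, score 22). Assignment to the nearest start also brought in peaks that the annotation places in a neighbour: 3 of the 34 control peaks (in Garre1, Ncapd2 and Parp6), 4 of the 30 ERRα-knockdown peaks and 4 of the 16 HCFC1-knockdown peaks (in either list in Iffo1, Ncapd2 and Usp5). Of these, 1 was a gene-start peak, that of Tpi1 after ERRα knockdown, whose centre falls at the end of Usp5. In the other direction, no peak within 1000 bp of the 10 genes' starts was given to another gene, and within their bodies 1 control and 1 ERRα-knockdown peak were, both in Gpi1 and given to Pdcd2l.

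The other isoenzymes of glycolysis, a list of 20 genes that holds the liver, muscle, brain and testis forms together with the phosphoglycerate mutases, had fewer gene-start peaks. In control 7 of 20 had one (35.0%, 15.4 to 59.2%), against 43.7% of all protein-coding genes, and 6 of 20 did in each knockdown list (30.0%), against 44.6% with ERRα siRNA and 29.0% with HCFC1 siRNA. Hk1, the hexokinase of most tissues, scored 73 in control cells, 96 with ERRα siRNA and 41 with HCFC1 siRNA. Eno3, muscle enolase, scored 50 in control and 67 after HCFC1 knockdown, and its control peak was overlapped in both knockdown lists. The liver pyruvate kinase gene Pklr, chosen after its values were seen, had no gene-start peak in any list. Pfkm, muscle phosphofructokinase, also chosen after its value was seen, had the strongest control peak of these 20 genes and the 10 above. In control it scored 1552 (chromosome 15, 98091886 to 98094094), percentile 95.2 among gene-start peaks. The overlapping peaks after ERRα knockdown (98091797 to 98094531, score 3274) and HCFC1 knockdown (98092749 to 98093972, score 405) were given to the neighbouring Senp1, so this peak belongs to a region that the annotation can give to either gene. Pgam1, the main phosphoglycerate mutase, chosen likewise, scored 222, 277 and 68 for control, ERRα and HCFC1 siRNA.

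Regulators and transporters of the pathway, 20 genes, had a gene-start peak in 11 cases in control cells (55.0%, 31.5 to 76.9%), in 14 with ERRα siRNA (70.0%) and in 8 with HCFC1 siRNA (40.0%), against 43.7%, 44.6% and 29.0% of all protein-coding genes. All 11 with a control gene-start peak had one overlapped after ERRα knockdown and 6 after HCFC1 knockdown, against 92.1% and 60.4% of all genes with such a peak. Tigar, a fructose bisphosphatase that slows glycolysis, had scores of 90, 101 and 36 for control, ERRα and HCFC1 siRNA. The lactate transporter gene Slc16a1 scored 67, 252 and 47 in the same order. Pdk2, a kinase that inhibits pyruvate dehydrogenase, scored 116 in control and 90 after ERRα knockdown, with no gene-start peak after HCFC1 knockdown. Gluconeogenesis, the reverse route of liver, had 4 of 8 genes with a control gene-start peak (50.0%, 15.7 to 84.3%, against the same 43.7%), led by G6pc3 (291) and the pyruvate carboxylase gene Pcx (212). Of those 4, 3 were overlapped after ERRα knockdown, all but Pck1, the gluconeogenic phosphoenolpyruvate carboxykinase (17). After HCFC1 knockdown 2 were, Pcx and the glucose-6-phosphate transporter gene Slc37a4 (68). The pentose phosphate pathway, which branches from glucose-6-phosphate, had 7 of 8 in control (87.5%, 47.3 to 99.7%, against 43.7%). Rpia, ribose-5-phosphate isomerase, led it with scores of 2425, 3880 and 2083 in that order of conditions, while Pgd (140) lost its overlap after HCFC1 knockdown.

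By deposited gene name, the glycolysis genes had control gene-start peaks in a similar or larger share of cases than the mitochondrial genes. The median score of the glycolysis genes was lower. Pyruvate entry and the TCA cycle had 19 of 24 genes with a control gene-start peak (79.2%, 57.8 to 92.9%) at a median score of 144, and respiratory complex I had 27 of 36 (75.0%, 57.8 to 87.9%) at a median of 263, against 76 for glycolysis. The strongest mitochondrial peaks were far above any of the 10 glycolysis genes, such as 5915 at Ndufb5, a complex I subunit, and 3219 at the TCA gene Suclg1. Among these 3 lists, peaks given to neighbours were looked for only at the glycolysis genes. Ndufa13 and Mdh2 had no control gene-start peak but scored 2109 and 436 after ERRα knockdown. Ndufb5 had no peak under its name after ERRα knockdown, though its control peak was overlapped there. How far assignment to neighbours alters the mitochondrial shares was not tested. Every one of the 19 and of the 27 control genes had a start peak overlapped after ERRα knockdown, like the 10 of glycolysis and 92.1% of all such genes. After HCFC1 knockdown 12 of 19 and 22 of 27 did, beside 5 of 10 for glycolysis and 60.4% of all genes with a control gene-start peak. Sdhd (306), a subunit of succinate dehydrogenase, and the complex I genes Ndufs6 (288) and Ndufa5 (276) were without overlap there despite scores above those of the glycolysis genes. The intervals of the 3 lists overlap in each condition, and no difference between them was tested.

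**Figure D4:**
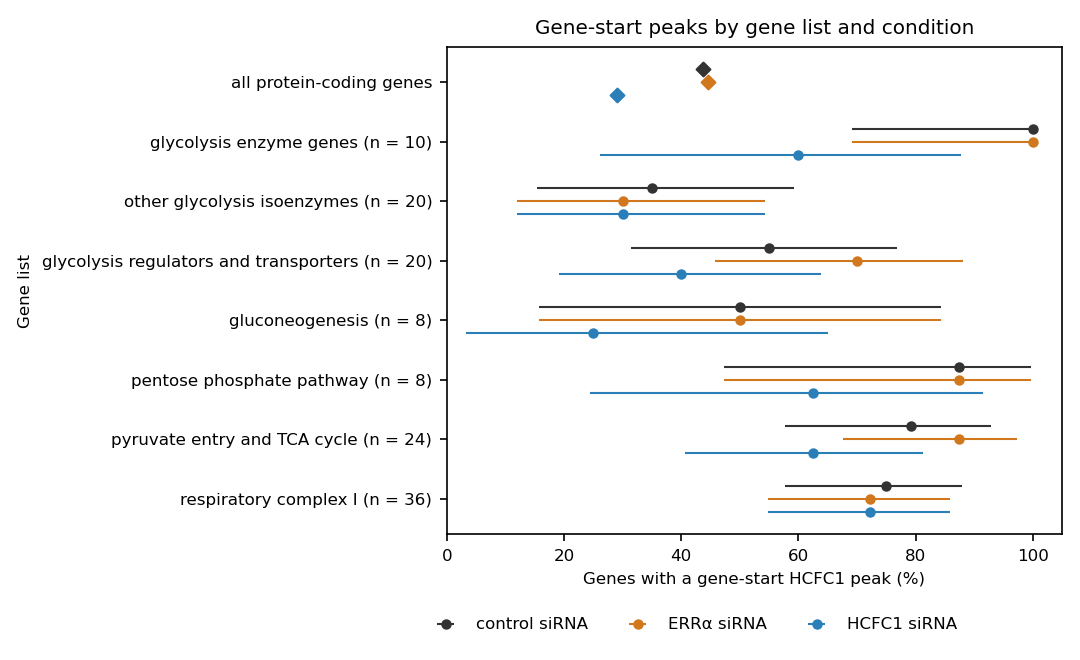
Points give the percent of genes in each list with an HCFC1 peak centred within 1000 bp of a transcription start, with exact binomial 95% intervals, for control, ERRα and HCFC1 siRNA; diamonds give all protein-coding genes. Control shares run from 35.0% for the other glycolysis isoenzymes to 100.0% for the 10 glycolysis enzyme genes, with 43.7% over all protein-coding genes.

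RefSeq promoter windows on GRCm38.p6 were found for all 10 genes, 16 windows in all, since Aldoa and Eno1 have 3 starts and Pkm and Ldha more than 1, some of them overlapping. Their GC content had a median of 63.6% against 52.7% over 32851 mouse windows, and they held a median of 23 CpG dinucleotides against 7. The GC box, GGGCGG, was in 11 of the 16 windows and in 9 of 10 genes, all but Gapdh, against 35.7% of all windows. In the Pgk1 window printed above it occurs 5 times, from 176 bases before the start to 32 after it. CCAAT was in 8 windows, from 5 genes, Hk2, Aldoa, Pgk1, Eno1 and Pkm, against 37.4% of windows, and TGCGCA, the core of the NRF1 motif, in 5 windows, from 4 genes, Pfkl, Aldoa, Eno1 and Ldha, against 7.76%. The ERR core AAGGTCA was found at Eno1, 163 bases before its most upstream start, and at Tpi1, 9 after its RefSeq start, against 4.72% of windows. The start used for peak distances at Tpi1 is another, 139 bp from that RefSeq start. The window of the Eno1 start used for peak distances held no ERR core. The E-box CACGTG was found only at Ldha, at -145 and -48, against 7.15%, and the YY1 core ATGGCGG only at Tpi1, against 4.05%. Its last 5 letters are also those of the GC box, though the Tpi1 matches do not overlap. No window of the 10 genes held ACTACAA, a core of the ZFP143 and THAP11 element (3.24% of all windows), the ETS core CCGGAAG that GABPA binds (8.86%) or TATAAA (13.6%). Matches are letters in a 300-base window and do not show binding.

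By promoter-labelled peaks alone, the gene with the highest control score among the 10 was Pgk1 (83), which had no such label in either knockdown list. The likeness of other genes was measured as the Euclidean distance between percentiles of the highest promoter peak over the 3 lists, with 0 for no peak. Asns, Brwd1 and Ccdc15 stood at a distance of 0, in a tie of 13 genes that share the score of 83 and the missing labels.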

How the data were processed

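The starting point was the authors' deposited lists of annotated HCFC1 peaks, 1 per siRNA condition, in Hepa1-6 cells. The mm10 build, BWA (0.7.12), Picard (2.0.1), HOMER (4.11.1) and MACS2 (2.1.1.20160309) are named per the submitters' processing notes, with no role given for each. Scores deposited with the peaks are whole numbers of at least 13 whose scale is not stated. Read depth is unknown. The lists hold no read counts, so intervals cover counting of genes or peaks only.

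Peaks were taken by the deposited gene name and overlapped in Python 3.11.15 with pandas 2.3.3. The overlap step was tested on simulated intervals. Shares carry exact binomial (Clopper-Pearson) 95% intervals from scipy 1.17.1. Protein-coding genes, promoter sequences and gene names of annotated transcripts came from RefSeq tables on GRCm38.p6, the assembly of mm10. All 116 genes of the 6 comparison lists matched by symbol. The start implied by the deposited distances differed from the nearest RefSeq start by 208 bp for Pkm, 139 bp for Tpi1 and at most 1 bp for the other genes.

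The 10 genes, the comparison lists and the rules were chosen with earlier results of these data known. Named genes were the 10, up to 4 comparison genes per list by control promoter score, up to 4 such genes without overlap in a knockdown list, and the 3 genes most like the strongest; not all of them are reported here. The alternatives changed the promoter definition, gene assignment, overlap, score filter and list length, and those on distance were chosen after seeing the data.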

Additional observations from a re-analysis of the deposited data

How the results depend on the processing

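No paired analysis was possible because each condition has 1 HCFC1 library, so no replicate could be left out either. Read depth is unknown, and whether it differs between lists was not tested. Retention of the 34 control peaks depended on the overlap rule. With reciprocal overlap of at least 50% the kept share was 26.5% after ERRα knockdown and 11.8% after HCFC1 knockdown. With centres within 200 bp it was 26.5% after ERRα knockdown, and 14.7% after HCFC1 knockdown. With lists of equal length (12610 peaks) it was 75.0% and 58.3% of 12 control peaks, with a control score of at least 100 it was 100.0% and 75.0% of 4, and over gene-start peaks, a choice made after seeing the data, 100.0% and 50.0%. Limiting control peaks to 20 kb, likewise chosen later, gave 65.5% and 31.0%.

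Members with any peak numbered 10, 10 and 8 in the full lists for control, ERRα and HCFC1 siRNA. Lists of equal length gave 8, 9 and 8 in that order, so the lower count with HCFC1 siRNA than in control was not seen there. A score of at least 100 left 4, 7 and 0, but on an unstated scale this cut-off may not mean the same in each list. The higher-scoring 50% of each list gave 10, 9 and 4. Members with a promoter peak numbered 10, 10 and 6 (control, ERRα and HCFC1 knockdown) by centres within 1000 bp, 10, 10 and 7 within 5000 bp, and 10, 10 and 6 by any peak overlapping 1000 bp either side of a gene start. By the promoter label and with lists of equal length they numbered 2, 2 and 2 in that order, against 5, 5 and 2 in the full lists. In the higher-scoring 50% of each list they numbered 4, 2 and 0.

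For the comparison lists, in the order control, ERRα and HCFC1 knockdown, the label gave 2, 2 and 4 other isoenzymes against 7, 6 and 6 within 1000 bp and 8, 7 and 7 within 5000 bp. Regulators and transporters had 3, 5 and 5 against 11, 14 and 8, and 11, 14 and 9. Gluconeogenesis had 4, 2 and 1 against 4, 4 and 2 at either distance. The pentose phosphate pathway had 4, 2 and 2 against 7, 7 and 5 at either distance. Pyruvate entry and TCA cycle had 12, 11 and 7 against 19, 21 and 15 at either distance. Complex I had 13, 9 and 17 against 27, 26 and 26, and 30, 33 and 26. With lists of equal length the ERRα-knockdown counts were 1 for the other isoenzymes and 3 for regulators and transporters. Of 96 values under alternatives, 36 stayed within 1.5 times the count or within the interval.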
